A study of Mus musculus with 8 samples.

Results

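The CTCF peaks of wild-type and tagged mouse embryonic stem cells were compared site by site. All CTCF peaks on the 19 numbered autosomes were taken, 96324 from the wild type and 80258 from the tagged line C59, or 176582 of the 254001 peaks in the 4 deposited lists. Peaks of the 2 lines were matched when they overlapped by at least 1 bp, and no measured strength entered the choice. Both lines were JM8.N4 embryonic stem cells grown in serum and LIF, a cytokine that keeps such cells undifferentiated, on gelatin without feeder cells. The wild type carried no tag. C59 was a homozygous knock-in line, named as 1 line in the labels, whose endogenous CTCF carried a FLAG epitope and a HaloTag (FLAG-Halo-CTCF) and whose Rad21 carried a SNAPf tag and a V5 epitope (Rad21-SNAPf-V5). C59 thus differed from the wild type in 2 tagged proteins, and an effect of either tag or of the clone cannot be told apart. The same CTCF antibody (Abcam ab128873) was used for both lines, with no drug or other treatment named.

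CTCF is a zinc finger protein that reads a long DNA motif and sits at insulators, imprinting control regions and the bases of chromatin loops. Cohesin, the ring complex that contains Rad21 and Smc3, extrudes loops until it meets CTCF bound in the right orientation. A ChIP-seq peak is a stretch where sequenced fragments pile up over background, its summit is the base with the highest pileup, and its width is the stretch above the caller's threshold. Each line had 1 CTCF library, so every difference below lacks a replicate check. Intervals cover counting error only and are exact 95% intervals unless called approximate. The lists held no read totals, so the sequencing depth behind each line is unknown. Pileups were whole numbers in the wild type and stepped by 0.96 in C59, so strength was compared between lines only as ranks within a list. Pileups and local backgrounds printed for both lines are on each list's own scale, and their differences are not measured changes. The labelled cell type was not checked against markers, since peak lists hold no expression.

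The sites that tie both lists to DNA were promoters with the CTCF core consensus, searched on both strands of the 300 bases around each RefSeq gene start (250 before to 50 after, build GRCm38.p6). Exact matches stood in 130 of 31363 promoter windows, or 0.415%. Shown first are the 3 strongest paired sites with both summits within the printed stretch. A stretch could be printed for 113 pairs with a motif, and 81 of these had both summits within it. Among those sites Cldn1 (a tight junction protein) had the largest rise in rank, with ranks taken among the matched pairs. Gm39228 and Csk (a kinase that restrains Src) had the largest falls. Rufy4, whose stretch could not be printed, rose further, by 11.3 points against 9.44 at Cldn1. At Gm34744 and C1rb the wild-type summit lay over 100 bp from the motif and the C59 summit beside it. These examples were chosen after their values were seen. Each runs 5′ to 3′ on the strand of the motif, and capitals mark the 13 bases that match the consensus.
Lsm11, chr11:45944997-45945069, plus strand: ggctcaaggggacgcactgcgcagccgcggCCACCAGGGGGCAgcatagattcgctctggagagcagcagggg
Gaa, chr11:119267906-119267978, plus strand: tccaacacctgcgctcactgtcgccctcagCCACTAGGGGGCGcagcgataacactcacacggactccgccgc
Gm30470, chr11:79224587-79224659, plus strand: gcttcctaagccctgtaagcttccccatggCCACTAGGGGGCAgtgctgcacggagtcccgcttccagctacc
Cldn1, chr16:26371866-26371938, minus strand: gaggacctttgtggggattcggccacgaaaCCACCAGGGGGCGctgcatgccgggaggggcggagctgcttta
Gm39228, chr8:94183292-94183364, minus strand: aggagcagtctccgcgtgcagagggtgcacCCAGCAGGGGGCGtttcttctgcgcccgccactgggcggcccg
Csk, chr9:57645666-57645738, minus strand: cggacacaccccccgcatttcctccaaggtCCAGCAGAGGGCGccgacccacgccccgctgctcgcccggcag
Gm34744, chr7:19749700-19749772, minus strand: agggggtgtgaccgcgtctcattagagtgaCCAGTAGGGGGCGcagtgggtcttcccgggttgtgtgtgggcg
C1rb, chr6:124570190-124570262, plus strand: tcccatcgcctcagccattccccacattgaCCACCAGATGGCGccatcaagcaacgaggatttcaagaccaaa

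At Lsm11, which encodes a protein of histone pre-mRNA processing, the summit lay 13 bp from the motif centre in the wild type and 10 bp in C59. At Gaa, the gene of lysosomal acid alpha-glucosidase, both summits lay on the same base, 18 bp from the centre. At Gm30470 the distances were 11 bp and 0 bp. These 3 sites ranked within the top 1% of both lists, with rank percentiles (0 weakest, 100 strongest) between 99.3 and 99.9. Cldn1 stood at 83.0 in the wild type and 88.5 in C59. Csk stood at 91.7 and 76.4, and Gm39228 at 92.7 and 73.5, so both were lower in C59 with the motif 6 to 32 bp from either summit. These percentiles are ranks in the whole lists, on which Ly6g6d fell further, from 55.5 to 32.6. Gm39228 lies on chromosome 8, where the median rank difference among all its pairs was -11.2 points. Lsm11, Gaa and Gm30470 lie on chromosome 11, where that median was 3.51. At Gm34744 the wild-type summit was 543 bp and the C59 summit 9 bp from the motif, and at C1rb (a complement protease gene) the distances were 134 bp and 13 bp.

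Over all promoter motifs, the summit of both lines sat close to the core consensus, a little to its 5′ side. Of the 130 motifs, 126 lay inside a peak of both lists, 1 inside a wild-type peak alone, 1 inside a C59 peak alone and 2 in no peak. For the 122 one-to-one pairs with a motif the median distance was 15.5 bp (13 to 18) in the wild type and 19 bp (17 to 22) in C59. The wild-type summit was the closer one in 71 pairs and the C59 summit in 49. Both summits fell on the same side of the motif centre in 90 pairs. The signed medians were -9.5 bp and -10 bp, negative values being 5′ of the motif. Promoter windows with the summit of a wild-type peak that was found in C59 held the consensus in 110 of 1841 cases (5.98%), against 15 of 28853 windows (0.0520%) with no summit. None of the 415 windows with the summit of a wild-type peak missing from C59 held it, which allows a share of up to 0.885%, and none of 72 with a C59 summit missing from the wild type, which allows up to 4.99%. A window without these exact letters may still hold a weaker match. Missing wild-type peaks were also weaker, with a median pileup of 24 over all autosomes against 83 for found ones. Strength was not matched here, so the missing motif cannot be told apart from weakness.

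Matching placed 76938 wild-type peaks (79.9%, 79.6 to 80.1) in C59 and 77922 C59 peaks (97.1%, 97.0 to 97.2) in the wild type. These shares depend on the lengths of the lists: with equal numbers of the strongest peaks they were 90.5% and 91.8%. The 19386 wild-type and 2336 C59 peaks without a match were weak and narrow, with median widths of 319 bp and 284 bp, and none of them ranked above percentiles 64.6 and 43.3 of its list. Each of 74931 wild-type peaks overlapped exactly 1 C59 peak that in turn overlapped no other. These one-to-one pairs, 97.4% of the found wild-type peaks, carry the comparisons of summit, width and rank. At the edge of the overlap rule, 4 pairs overlapped by 50 bp or less, with a median wild-type pileup of 24. Just outside it, 53 unmatched wild-type peaks had a C59 peak at most 50 bp away, with a median pileup of 21.

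Summits of paired peaks lay at nearly the same base in both lines. The median distance was 17 bp, with quartiles of 7 and 34 bp, and 90 bp at the 95th percentile. The signed shift had a median of 0 bp, with the C59 summit at the higher coordinate in 48.7% of pairs, at the lower in 49.2% and on the identical base in 2.1%. Within 10, 25, 50 and 100 bp lay 34.0%, 65.1%, 86.0% and 96.0% of pairs. The C59 summit was inside the wild-type peak in 99.8%.

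Stronger peaks had closer summits. From the weakest to the strongest decile of wild-type pileup among pairs, the median distance fell stepwise from 36 bp (35 to 37) to 10 bp (9 to 10), and the share of pairs over 100 bp apart was 14.2% and 0.667% at the 2 ends. Pairs without a Smc3 peak in either line had a median of 24 bp, against 12 bp in those with Smc3 in both, but their median wild-type pileups were 43 and 188. At like strength the medians of Smc3 in neither and in both lines were closer. From the first to the fifth decile they were 36 and 34, 29 and 24.5, 25 and 22, 22 and 17, and 19 and 17 bp. From the sixth to the tenth they were 16 and 16, 14 and 13, 11 and 12, 13 and 11, and 11 and 10 bp. Smc3 in neither line thus had the larger median except in the sixth and eighth deciles. Pairs with Smc3 in both lines numbered only 9 and 26 in the first and second deciles. Every autosome had a median between 16 and 18 bp.

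**Figure D1:**
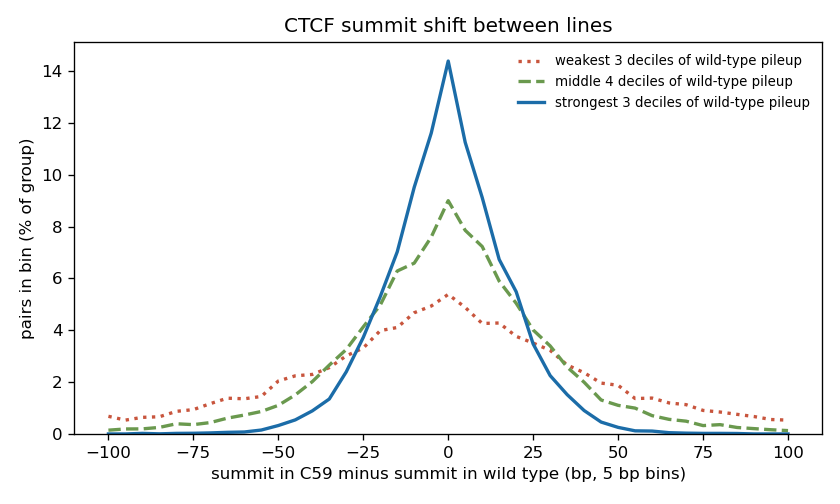
Distance in bp from the wild-type to the C59 summit (x axis, 5 bp bins) against the share of pairs in each bin (y axis, percent of the group), for the weakest 3, middle 4 and strongest 3 deciles of wild-type pileup. All 3 curves centre on 0, and the strongest group is the narrowest.

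A small set of 145 pairs had summits over 500 bp apart. These were wide peaks, with a median width of 1492 bp in the wild type against 639 bp over all pairs. The largest shift was at chr2:164949968-164954154, nearest to Mmp9 (a secreted matrix protease), where a 4187 bp wild-type peak and a 3868 bp C59 peak had summits 2723 bp apart. Its rank was 97.2 in the wild type and 98.0 in C59. At Cbx6, a Polycomb gene on chromosome 15, the summits were 1675 bp apart in peaks of 2745 and 2515 bp. At a site on chromosome 4 they were 1467 bp apart in peaks of 2296 and 2186 bp. It is named by Gm13090, whose end was the nearest annotated one but lay 147715 bp away. Rank in the whole lists moved by under 7 points at all 3 places, and among pairs the Gm13090 site rose by 11.6 points.

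The matches that were not one-to-one also involved wide peaks. In the wild type 1328 peaks overlapped 2 or more C59 peaks, and in C59 379 peaks overlapped 2 or more wild-type peaks. The split wild-type peaks were 1544 bp wide at the median, and the C59 summits under them spanned 851.5 bp. The nearest of those C59 summits lay 13 bp from the wild-type summit at the median. The 379 C59 peaks were 1174 bp wide, their wild-type summits spanned 813 bp, and the nearest lay 14 bp away. The peak at Rtn4rl2, which encodes a Nogo receptor relative, was 3142 bp wide in the wild type and covered 4 C59 peaks with pileups from 14.42 to 161.51. Near Rbm34 on chromosome 8 a 3431 bp wild-type peak also covered 4. Near Lgr6, the gene of an R-spondin receptor on chromosome 1, a 3615 bp peak covered 3. In the other direction, C59 peaks of 2736 bp in the region of Ptp4a3, 2266 bp at Chrm4 and 2125 bp in the region of Zdhhc18 each covered 3 wild-type peaks.

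Paired peaks were narrower in C59. The median width was 639 bp in the wild type and 549 bp in C59, with a median ratio of C59 to wild type of 0.881 (0.880 to 0.883) and a median difference of -74 bp. Of all pairs 75.5% were narrower in C59 and 24.1% wider. A loss of at least 30% of the width was seen in 14.9% of pairs and a gain of at least 30% in 2.41%. Both sides drew in alike, the left edge by 32 bp and the right edge by 33 bp at the median. In 50.2% of pairs the C59 peak lay inside the wild-type peak, and in 10.1% the reverse.

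Narrowing was seen in every decile of strength. The median ratio was 0.928 in the weakest decile, 0.833 and 0.832 in the next 2, and rose from there to 0.905 and 0.904 in the strongest 2. In bp, the strongest decile narrowed from 1011 to 900 and the weakest from 339 to 307, where the 250 bp minimum of the lists limits how much narrower a peak can be. Where ranks in the whole lists agreed within 5 percentile points the ratio was 0.921, and where ranks among the pairs did, 0.889. The median local background under paired summits was 5.22 in the wild type and 4.00 in C59, each on the scale of its own list. Its part in the width difference was not tested.

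**Figure D2:**
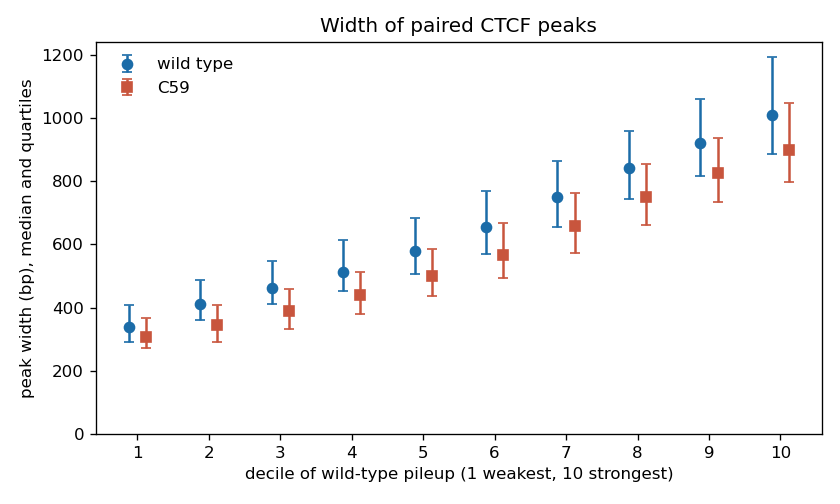
Peak width in bp (y axis; points are medians and bars the quartiles) by decile of wild-type pileup among pairs (x axis), for the wild type and C59. The C59 median is the lower one in all 10 deciles, from 307 against 339 bp to 900 against 1011 bp.

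The largest changes in width ran both ways. Hes3, a bHLH repressor gene on chromosome 4, had a peak of 2255 bp in the wild type and 806 bp in C59 while its rank was 94.5 and 93.4. The peak at Artn (a GDNF family ligand) measured 2878 and 1483 bp. At Fkbp10, a collagen chaperone gene, the peak was 1626 and 352 bp wide and weak in both lines, with ranks of 34.5 and 9.55. Wider in C59 were the peaks in the regions of Dytn (899 and 1741 bp), Yeats2, a reader of acylated histones (640 and 1307 bp), and Jun, the AP-1 subunit (686 and 1326 bp). Summits at these 6 places moved by 9 to 49 bp, and those at Hes3 (49 bp) and Fkbp10 (40 bp) lay beyond the upper quartile of 34 bp over all pairs.

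The order of sites by pileup was much alike in the 2 lines. Spearman's rho over the 74931 pairs was 0.951 for pileup, 0.907 for fold enrichment over local background and 0.865 for width. It is a description across sites that share a library, depth and base composition. Of the 1000 strongest wild-type peaks 540 (54%) were among the 1000 strongest C59 peaks, and of the 10000 strongest 8254 (82.5%).

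Taken in the whole lists, the rank in C59 minus that in the wild type had a median of -5.99 points. A fall of at least 20 points was seen in 7959 pairs, 10.6% of those compared, and a rise of that size in 206, or 0.275%. The wild-type list has 19386 mostly weak peaks with no match, which lifts the percentile of every stronger wild-type peak. Ranks among the pairs alone remove that offset. On that scale the median difference was 0.07 points, the quartiles -4.90 and 4.97, and 77.0% of pairs stayed within 10 points. Falls of 20 points or more then numbered 1588 (2.12%) and rises 1406 (1.88%). These 4 shares are the background against which named sites and gene lists are read.

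**Figure D3:**
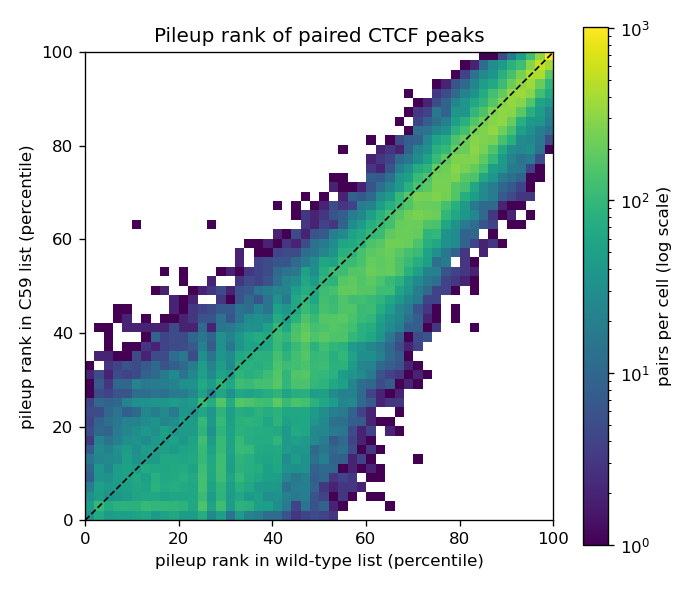
Pileup rank percentile in the wild-type list (x axis) and the C59 list (y axis) for the 74931 pairs, with the number of pairs in each 2 by 2 point cell in colour on a log scale and equality dashed. Pairs follow the diagonal, tightly at the top and with a spread below it in the lower part, and the median difference over all pairs is -5.99 points.

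The 5 pairs with the highest mean rank were at 3 places. Of these, 3 lay around Hjurp, the chaperone of the centromeric histone CENP-A, on chromosome 1 (from 88277268 to 88288648). Their pileups were 384 to 422 in the wild type and 414.34 to 440.3 in C59. Their folds were only 14.2 to 21.7 and 13.0 to 17.4, against medians of 12.8 and 11.7 over all pairs. Another was in the region of Gm51877 on chromosome 11, with a fold of only 3.94 in the wild type and 3.19 in C59. Exd1, a gene of the piRNA pathway, had the fifth at chr2:119546716-119548028. There the summits were 1 bp apart, the widths 1313 and 1309 bp, and the folds 57.4 and 67.1, with no Smc3 peak in either line.

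Outside chromosomes 1, 8 and 11, the largest fall in rank was near Dlk1, an imprinted Notch-pathway gene on chromosome 12. Its pileup was 125 in the wild type and 23.07 in C59, its rank 72.0 and 13.7, and its width 599 and 309 bp, while the summit moved by 1 bp. The next falls were near Etnk1 (63.1 to 5.51), Wdr1, an actin disassembly factor (52.8 to 0.583), Vav2 (53.3 to 1.26), and Epb41l1 (61.5 to 9.55). The C59 peak was the narrower at all 5 (75.5% of all pairs), and 4 of them had a Smc3 peak in the wild type alone (23.0% of all pairs). That class was more common at their strength. It held 2883, 3259 and 2824 of the 7493 pairs in each of deciles 5, 6 and 7 of wild-type pileup, where the 5 falls lay. The largest rise was near Socs5, a cytokine signalling suppressor, with pileups of 32 and 94.21 and ranks of 27.2 and 63.8. Rises of 31.9 to 35.8 points followed near Tgfa, an EGF receptor ligand, Mrps18a, Cacng2 and Syndig1l. At all 5 the C59 peak was the wider (24.1% of all pairs), and 4 had no Smc3 peak in either line, as did 7179 of the 7494 pairs in the weakest decile. All 5 rises began at or below rank 27.2.

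Rank differences followed 3 whole chromosomes. Among pairs, C59 ranks were higher by a median of 8.67 points on chromosome 1 and 3.51 on chromosome 11 and lower on chromosome 8, where the median was -11.2. On the other 16 autosomes the medians lay between -1.55 (chromosome 14) and 0.13 (chromosome 5). Width followed rank, with ratios of 0.960 on chromosome 1, 0.910 on chromosome 11 and 0.801 on chromosome 8, against 0.865 to 0.888 elsewhere. So did matching: 87.3% of wild-type peaks were found in C59 on chromosome 1 and 71.6% on chromosome 8. Summit distance did not, with medians of 17, 17 and 16 bp.

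The differences ran along the full length of these chromosomes. In windows of 5 Mb with at least 20 pairs, the median rank difference was above 0 in 39 of 39 windows on chromosome 1 (4.67 to 15.2 points) and in 25 of 25 on chromosome 11 (1.57 to 8.79). It was below 0 in 26 of 26 on chromosome 8 (-14.4 to -7.17). The other 400 windows ran from -3.17 to 5.48. Of these, 158 were above 0 and 242 below. The highest was on chromosome 5 from 80 to 85 Mb and rested on 24 pairs. Some windows with more pairs were also in the range of chromosome 11. Counted from the chromosome start, windows 29 to 32 on chromosome 3 had medians of 4.01, 2.48, 3.18 and 3.88 points. They held 81, 114, 106 and 49 pairs. On chromosome 5, window 26 stood at 3.70 (387 pairs) and window 30 at 2.97 (409 pairs). Local background under the peaks, on each list's own scale, also varied among these chromosomes. Its median was 7.17 in the wild type and 4.00 in C59 on chromosome 8, 5.22 and 5.50 on chromosome 1, 6.09 and 5.92 on chromosome 11, and 5.22 and 4.00 over all pairs. The part of background in the rank differences was not tested. The lists hold no read depth, so chromosome copy number in either line was not tested. A rank on these chromosomes, at Gm39228, Ctcf, Mau2 and Zfp42 on chromosome 8 among others, carries that limit. Without these 3 chromosomes rho was 0.959 in place of 0.951, and rises of 20 points or more in the whole lists made up 0.148% of pairs in place of 0.275%.

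**Figure D4:**
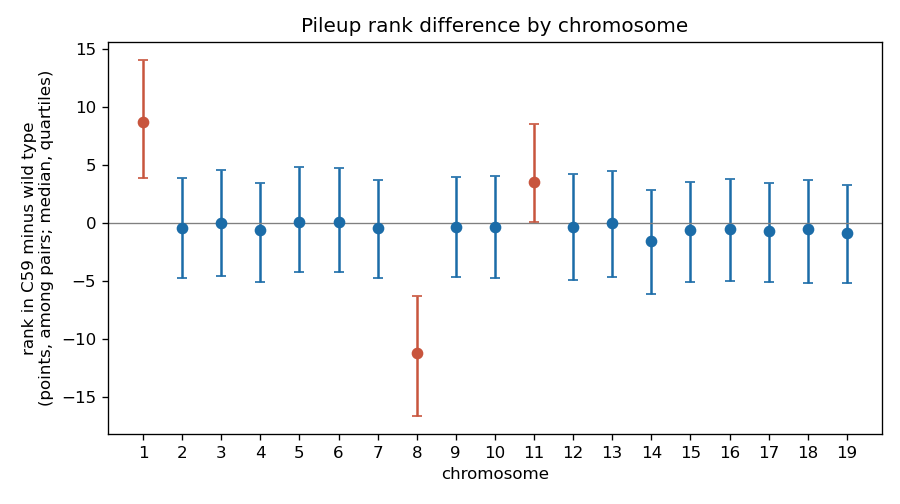
Difference in pileup rank, C59 minus wild type, in percentile points among pairs (y axis; points are medians and bars the quartiles) for each numbered autosome (x axis). Chromosome 1 (8.67) and chromosome 11 (3.51) sit above the rest and chromosome 8 (-11.2) below.

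CTCF sites were dense, and slightly less so in C59. A paired site had a median of 7 other wild-type summits within 50 kb and 6 other C59 summits, and the nearest other summit was 4606 bp away in the wild type and 5601 bp in C59. Fewer neighbours in C59 than in the wild type were counted for 61.9% of pairs, as many for 31.8% and more for 6.27%. The shorter C59 list alone would lower these counts. The densest place was near Tead3, a Hippo pathway transcription factor gene, on chromosome 17. The wild-type summit at 28336964 had 31 others within 50 kb, and 22 C59 summits lay in the same span.

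Crowded wild-type sites were found in C59 less often than isolated ones of like strength, by a small margin. Sites with 4 or more other wild-type summits within 50 kb were called crowded (74015 peaks) and sites with none isolated (4022). Neighbours were counted in the wild-type list, so wild-type peaks missing from C59 also count as neighbours of each other. How far this shapes the margin was not tested. Over all strengths 79.7% (79.4 to 80.0) and 78.1% (76.8 to 79.4) were found. Crowded sites were the stronger ones, with a median pileup of 60 against 47. With the 10 deciles of wild-type pileup weighted equally, the shares were 79.3% and 82.1%, a difference of -2.84 points (approximate interval -3.66 to -2.02). The shares differed in the weaker deciles. In the weakest decile 19.7% of crowded and 25.9% of isolated peaks were found, in the third 59.2% and 67.3%, in the fourth 81.4% and 88.3%, and from the eighth on 100% of both. Median local background was 5.22 at crowded and 4.27 at isolated sites, and its part in the difference was not tested.

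**Figure D5:**
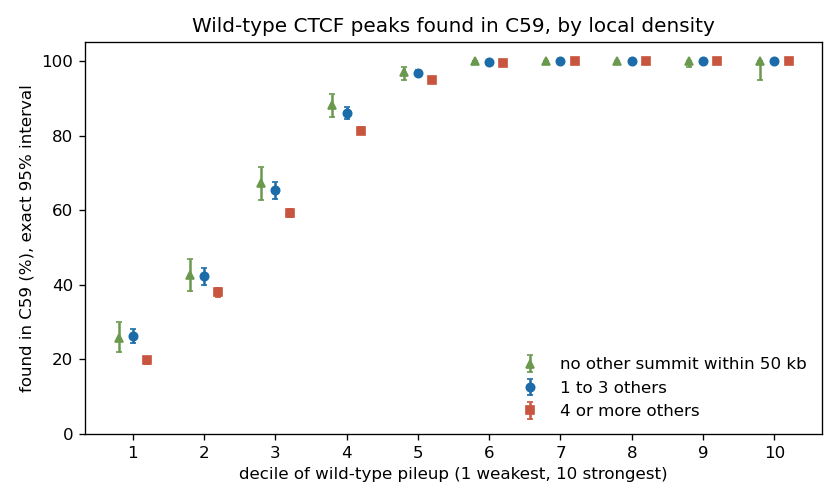
Share of wild-type CTCF peaks found in C59 in percent (y axis; bars are exact 95% intervals) by decile of wild-type pileup over all autosomal peaks (x axis), for sites with 0, 1 to 3 and 4 or more other summits within 50 kb. Crowded sites are the lowest group in deciles 1 to 5, and the groups meet near 100% from decile 6 on.

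Paired sites showed the same order. Weighted equally over deciles, the width ratio was 0.907 at isolated and 0.871 at crowded sites, and the median rank difference among pairs was 1.75 and -0.31 points. With the same weighting, summits over 100 bp apart made up 2.06% of isolated and 4.57% of crowded pairs. The decile medians of the distance averaged 18.4 and 20 bp. Unweighted, the shares were 2.43% and 4.43%, and the median distances had the other order, 18 bp at isolated and 17 bp at crowded pairs. No site of a line could be set against a replicate, so whether another wild-type library would give the same order was not tested.

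Of the pairs, 9.15% had the wild-type summit within 1 kb of an annotated gene end, 47.7% lay inside a protein-coding gene and 43.1% outside. At equal deciles the width ratio was 0.860 at gene ends, 0.870 inside genes and 0.891 outside, and the rank difference among pairs -1.74, -0.20 and 1.07 points. Wild-type peaks missing from C59 lay at gene ends in 10.0% of cases and inside genes in 50.6%. C59 peaks missing from the wild type did so in 10.9% and 41.6%.

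Cohesin, read from the Smc3 lists, was present at 30.8% of CTCF pairs in both lines, at 23.0% in the wild type alone, at 0.331% in C59 alone and at 45.8% in neither. The C59 Smc3 list is the shorter, with 25734 peaks against 47281. The median CTCF rank difference among pairs was 0.06 points where Smc3 was in both lines, -1.47 in the wild type alone, 1.01 in neither and 5.50 in C59 alone, a class of 248 pairs. These classes differ in strength. With the deciles of wild-type CTCF pileup weighted equally, the values were 3.27, -0.76, 0.12 and 6.87 points. The 3.27 points rest on weak deciles that hold few pairs with Smc3 in both lines (9 and 26 in the weakest 2), while the strongest 2 deciles, with 5917 and 6440 such pairs, had medians of -0.04 and -0.46. The 6.87 points of the C59-alone class rest on few pairs as well. Deciles 1 to 4 held 5, 11, 21 and 30 of them, with medians of 6.16, 18.5, 11.5 and 12.3 points. The C59-alone class was also below 0 in the ninth decile (-0.16, 21 pairs). Width ratios at equal deciles were 0.999 with Smc3 in C59 alone and 0.850 in the wild type alone. Unweighted medians were 0.981 and 0.853. Both calls for a line came from chromatin of that line, so common handling cannot be told apart from the sites themselves.

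Gene lists showed how these values look at known loci. For each gene the one-to-one pair with the highest wild-type pileup within 10 kb was taken, and 6 lists of 160 genes were used. Of 19 autosomal genes of CTCF and the cohesin machinery, all had a pair. Among pairs 1 fell by 20 points or more and none rose. The median difference was -3.85 points among pairs and -7.00 in the whole lists, against 0.07 and -5.99 over all pairs. Each member was picked by the wild-type pileup that is then subtracted, which favours lower values, so these are not like backgrounds. Over all pairs the median among pairs was 4.67 points in the weakest decile and -0.54 in the strongest. At Ctcf itself, on chromosome 8, the strongest peak had pileups of 335 and 233.61, ranks of 99.8 and 96.0, and summits 4 bp apart. Near Smc3, the cohesin subunit, the ranks were 96.3 and 97.0 with summits 2 bp apart. At Esco1, a cohesin acetyltransferase, they were 98.3 and 99.2. The member that fell was Mau2, a cohesin loader subunit, also on chromosome 8. Its pileups were 84 and 33.65 and its ranks 60.8 and 30.4.

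Of the pluripotency genes, 22 of 23 on autosomes had a pair, and none moved by 20 points among pairs. The peak 9090 bp from Sox2 ranked 98.3 in the wild type and 95.4 in C59, that near Nanog 97.7 and 96.1, and that near Pou5f1 96.4 and 94.5. All 3 are core transcription factors of the embryonic stem cell state. Their summits moved by 3 to 14 bp, and Pou5f1 narrowed from 1781 to 1292 bp. Zfp42 (Rex1), on chromosome 8, had the largest difference, from 83.2 to 62.5.

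Of 29 imprinted genes 26 had a pair, and 1 fell and 1 rose by 20 points among pairs. Grb10, a growth-restraining adaptor, stood at 98.4 and 99.1, Kcnk9, a potassium channel, at 97.5 and 98.2, and Trappc9 at 95.5 and 93.0. Meg3, a maternally expressed noncoding RNA beside Dlk1, fell. Its peak had pileups of 121 and 49.03, ranks of 71.0 and 43.9 and widths of 674 and 401 bp, with summits 16 bp apart. The gene that rose was H19, named after its values were seen, with pileups of 64 and 96.14 and ranks among pairs of 41.0 and 63.1. In the whole lists its ranks were 52.8 and 64.4, a difference of 11.7 points. This peak lay 2656 bp from an end of H19 and carried Smc3 in both lines. The fall near Dlk1, given above, lay on the same chromosome at 109499975, and the Meg3 peak at 109542616.

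In the other 3 lists no gene moved by 20 points among pairs. Of the 39 Hox genes, regulators of position along the embryo, 35 had a pair, at 21 distinct places. Ranks were 98.1 and 99.3 at Hoxb9, 97.9 and 95.6 at Hoxa5, and 97.9 and 94.1 at Hoxd3, where the summits lay 115 bp apart. Hoxc13 had the largest difference, from 45.4 to 19.2 in the whole lists. Of 28 loop and insulator landmarks 26 had a pair, with a median difference of 0.21 points among pairs. The peak at Trp53, the p53 gene, ranked 99.93 and 99.99, that near Tcra 99.7 and 98.8, and that in the region of Lmbr1, which holds a distant Shh enhancer, 99.2 and 97.4. Tfap2a moved the most, from 70.3 to 47.5, with its peak narrowing from 971 to 469 bp. Of 16 housekeeping genes 15 had a pair. Rplp0 ranked 99.6 and 99.2, Ppia 99.1 and 99.4, and Tubb5 96.5 and 93.8. Over the 129 distinct pairs of the 6 lists, 2 fell (1.55%) and 1 rose (0.775%) by 20 points among pairs, against 2.12% and 1.88% of all pairs. In the whole lists 7 fell (5.43%) and none rose, against 10.6% and 0.275% of all pairs. The members were taken as the strongest wild-type peak of each gene, and 92 of the 129 lay above the 70th percentile among pairs. In the strongest decile of all pairs 0.280% fell and none rose, so the shares over all pairs are not a background of like strength.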

How the data were processed

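ChIP-seq peak lists of 1 wild-type and 1 C59 CTCF library were compared, with the 2 Smc3 lists as annotation. The 4 input and IgG libraries were not used here. Build mm10 is named, with no role or order of tools, in the submitters' processing notes beside MACS2 2.1.0.20140616, Bowtie 0.12.8, deepTools 2.4.1, FastQC 0.10.1 and CASAVA. The control and threshold of peak calling are not given in the sources used here. The extraction protocol names Rad21 where the labels name Smc3, and the labels were followed. The pileup signal at each summit, the p-value and q-value and the fold (a ratio over local background) are the authors' deposited values. Widths and summits were deposited by the authors in bp, counted from 1. Each peak's summit, p and fold describe it within its list.

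Overlaps, ranks (ties averaged), exact Clopper-Pearson intervals and order-statistic intervals of medians were computed with scipy 1.17.1, pandas 2.3.3 and numpy 2.4.6 in Python 3.11.15. The interval of the crowded minus isolated difference was a normal approximation that treats peaks as independent. Plots used matplotlib 3.10.9. The code was tested on simulated data. Local background was pileup plus 1, divided by fold, minus 1. Genes and promoters came from RefSeq GRCm38.p6, which has the chromosomes of mm10. A gene is named by the annotated end nearest to the wild-type summit. All 160 listed symbols matched, 2 by synonym. No genome sequence was used, so the motif was searched in promoter windows only. Named sites were the 5 highest mean ranks, the 5 largest rises and falls, the 3 largest shifts, width changes and splits, and from each list 3 genes of the highest pileup and 1 of the largest rank difference. A gene so named is not reported here. Members and lists were chosen with earlier results of these data known. With 1 library per line no test was made. Alternatives covered the overlap rule, the q threshold, ranks, the density window and chromosomes 1, 8 and 11.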

Additional observations from a re-analysis of the deposited data

Results flagged for a closer look

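Signal outside the numbered autosomes was not used in any comparison above. The X chromosome held 2396 wild-type and 1939 C59 CTCF peaks, and 78.8% of the former and 98.0% of the latter overlapped a peak of the other line. On the Y chromosome stood 18 and 15 peaks, of which 12 in each line were matched. Unplaced and unlocalised contigs held 21 and 15, of which 15 in each were matched.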

How the results depend on the processing

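Of 44 recomputed values 11 lay within the interval of the value reported and 33 outside it, most by little because 74931 pairs make the intervals narrow. Requiring an overlap of 50% of both peaks gave 77.2% of wild-type and 92.7% of C59 peaks found, a width ratio of 0.884, a median absolute rank difference of 6.80 points and rho of 0.953. Peaks with a −log10 q of at least 10 gave 82.0%, 97.4%, a summit distance of 15 bp, 0.890, 6.81 points and rho of 0.950. Without chromosomes 1, 8 and 11 the values were 79.6%, 97.4%, 0.877 and rho of 0.959, with rises of 20 points at 0.148%. Equal numbers of peaks gave 90.5% and 91.8%. Every overlapping pair gave 18 bp, 0.875, 7.09 points and rho of 0.924. Ranks among the pairs gave a median absolute difference of 4.94 points, with falls at 2.12% and rises at 1.88%, and at 1.56% and 1.38% without those 3 chromosomes. Ranking by fold gave 9.33 points and rho of 0.907. Pairs of like rank had width ratios of 0.921 (whole lists) and 0.889 (among pairs). Peak midpoints lay 36 bp apart. A window of 2.5 kb put 17.6% of pairs at a gene end. The overlap, q, chromosome, equal-number, all-pair and like-rank alternatives use other peaks or pairs by construction, and those of rank, midpoint and window change the measure on the same pairs. The cause of the shifts was otherwise not tested. The counts of moved pairs and the like-rank ratio among pairs were added after seeing the data. The crowded minus isolated difference ran from -2.79 to -2.11 points under other windows, bins and chromosomes. Leaving out a replicate was not possible with 1 library per line. No paired analysis was possible because each line has 1 CTCF library.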
